A study of Mus musculus with 11 samples.

Results

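The Hox genes are a family of transcription factor genes that lie in 4 clusters, HoxA to HoxD, and are numbered by their paralog group. They were taken as all genes whose symbol is Hox followed by a cluster letter and a paralog number, which selected 39 of the 24421 entries listed for each sample. They were measured by RNA-seq of eGFP+ astrocytes sorted by FACS from the olfactory bulb (OB, n = 3), hippocampus (HC, n = 3), cortex (CX, n = 2) and brainstem (BS, n = 3). All 11 samples came from Aldh1l1-eGFP mice on a C57BL/6 background aged 16 weeks and of both sexes, and the labels name no treatment. In these mice a bacterial artificial chromosome expresses eGFP from the regulatory sequence of the astrocyte gene Aldh1l1, so that any cell with active reporter enters the sort. Neither the labels nor the methods say whether replicates were separate animals or pools. The p-values therefore measure the spread between these samples, which may be technical.

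A Hox protein binds DNA through its homeodomain, often together with TALE cofactors of the Pbx and Meis families, and gives cells their position along the head-to-tail axis of the embryo. Within a cluster, genes with low paralog numbers lie at the 3′ end and are active furthest toward the head, while those with high numbers lie at the 5′ end and are active further toward the tail. The hindbrain, which forms much of the brainstem, lies in the territory of the low-numbered genes. The forebrain, which forms the OB, HC and CX, develops without Hox expression and relies on factors such as Lhx2. Each region was set against the others in the study to find what is particular to its astrocytes, and the Hox genes are described here by cluster and paralog number.

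The deposited values are read counts divided by 1 size factor per sample. Between 2830746 and 14151670 reads per sample were recovered on genes, and the BS samples, at 2830746 to 5552215, included the shallowest ones. A single read was worth 1.051, 2.003 and 2.105 in the BS samples, and 0.367 in the deepest sample of the series. The ribosomal RNA gene Rn45s took 18 to 25.6% of gene reads in the BS and 19 to 20.7% in the CX, against 0.966 to 2.93% in the OB and HC. Astrocyte markers were present in every BS sample. Aldh1l1 had values of 623, 1256 and 657 there, within 542 to 1317 elsewhere, whereas the glutamate transporter gene Slc1a3 was lower in the BS (log2 fold change −2.64, adjusted p = 0.000479, limma).

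The stretch that encodes the recognition helix of the homeodomain, the part that reads DNA bases, is shown for Hoxa2, Hoxc4 and Hoxa5, from 3 different paralog groups and all with enough reads for a test, since it shows how alike Hox transcripts are. It is 51 bases long, lies in the last exon of each gene's longest transcript, and was found in all 39 Hox genes (GENCODE, GRCm38). Capitals mark the 19 positions that differ among these 3 genes, and the other 32 are the same in all of them. The genes are on chr6 (Hoxa2, chr6:52163417-52163467, and Hoxa5, chr6:52202638-52202688, minus strand) and chr15 (Hoxc4, chr15:103035786-103035836, plus strand).
Hoxa2: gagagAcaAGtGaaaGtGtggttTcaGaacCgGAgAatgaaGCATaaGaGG
Hoxc4: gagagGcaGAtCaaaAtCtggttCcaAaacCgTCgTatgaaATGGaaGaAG
Hoxa5: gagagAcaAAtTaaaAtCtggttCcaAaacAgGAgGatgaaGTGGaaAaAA

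Identity over this stretch ran from 68.63 to 80.39% between pairs of the 3 genes. Over whole transcripts, the longest run of identical bases in any of the 741 pairs of Hox genes was 52, between Hoxa6 and Hoxb4, and no pair reached the read length of 75. Hoxb3 and Hoxd3 shared a run of 47 bases. Exons in common were a separate matter. Some transcripts of Hoxd3 and Hoxd4 share 388 exon bases, and some of Hoxc5 and Hoxc10 share 166, so that reads there cannot be assigned to a single gene.

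Hox reads were found almost entirely in the BS. The BS samples held 388 Hox reads among 11481176 gene reads. The 8 other samples held 1 Hox read among 56997169, a Hoxa7 read in OB replicate 2. No Hox read was found among 27084946 gene reads of the HC or 9902941 of the CX. The summed Hox value was 210, 152 and 236 in the BS samples, a mean of 199 ± 42.8 (SD, n = 3). It was 0.790 in OB replicate 2 and 0 in each of the other 7 samples, so that the BS did not overlap any other region. In a bulk sample, fewer cells with Hox transcripts and fewer transcripts per cell cannot be told apart. After each sample was thinned to 2830746 reads, the depth of the shallowest, 106, 69 and 112 Hox reads were left in the BS samples and 1 outside the BS.

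Of the 39 Hox genes, 16 had a read in the BS and 23 had none in any sample. A read was present in every BS sample for 9 genes: Hoxa2, Hoxa3, Hoxa4, Hoxa5, Hoxb3, Hoxb4, Hoxc4, Hoxd3 and Hoxd4. There were 3 genes with reads in 2 BS samples, Hoxb2 and Hoxb5 among them, and Hoxa7, Hoxb6, Hoxc5 and Hoxc6 had reads in 1. Among the 23 genes without a read are Hoxb1 and Hoxd1 of paralog group 1, Hoxa6, Hoxb7 and every member of groups 8 to 13. For such a gene, 3 reads over the 3 BS libraries, the limit that a count of 0 allows, correspond to a mean value of 1.56. The same limit over the 8 other libraries is 0.275, and both limits cover counting error only.

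**Figure D1:**
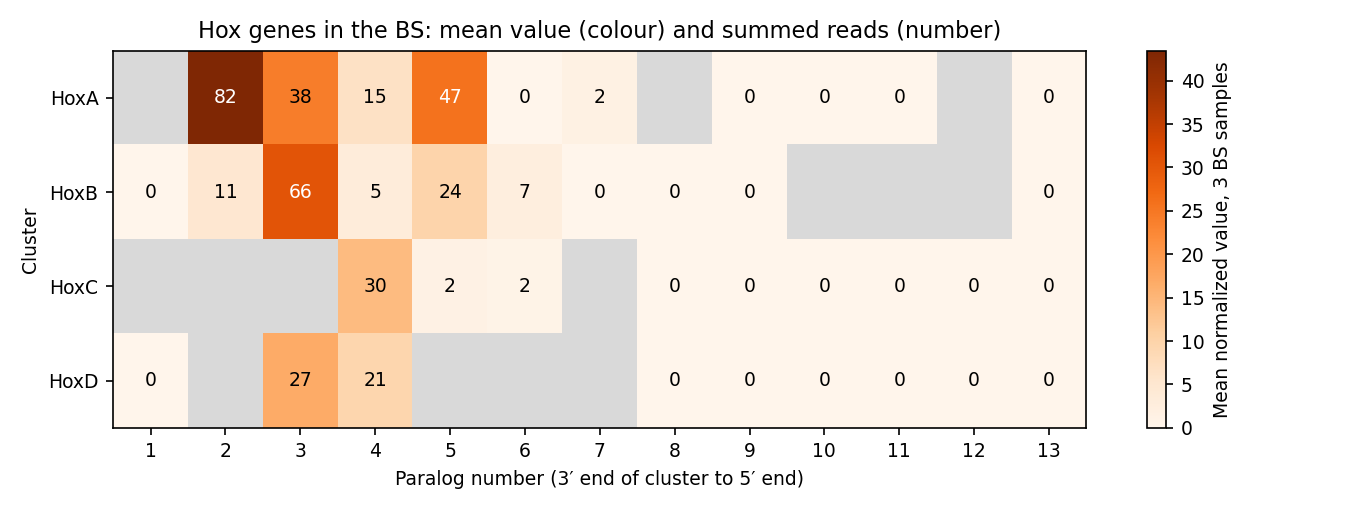
Hox genes by cluster (rows) and paralog number (columns), with colour for the mean normalized value over the 3 BS samples and the printed number for the reads summed over them; grey squares are positions without a gene in the files or with a gene not reported here. Coloured squares stop at paralog number 7, and the highest count is 82 reads for Hoxa2.

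By paralog number, the reads lay at the 3′ side of the clusters. In groups 1 to 5, 13 of 15 genes had a BS read, and these groups held 377 of the 388 reads (97.16%). In groups 6 and 7, 3 of 5 genes had a read, with 11 reads in all. In groups 8 to 13, none of 19 genes had a read in the BS samples, which allows a mean value of up to 1.56 for any one of them. Within the low numbers, group 2 had 93 reads, group 3 had 131, group 4 had 71 and group 5 had 73.

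Levels were also set against transcript length, as the summed value of a paralog group divided by the summed length of its members in kb. On this per-kb scale, and from group 2 on, group 2 was highest in each BS sample, at 14.21, 12.95 and 15.46. Group 3 followed at 6.73, 6.87 and 10.8. Group 5 had 6.28, 2.99 and 7.23, and group 4 had 5.56, 3.22 and 2.66, so that groups 4 and 5 overlapped. Groups 2 and 3 did not overlap each other.

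**Figure D2:**
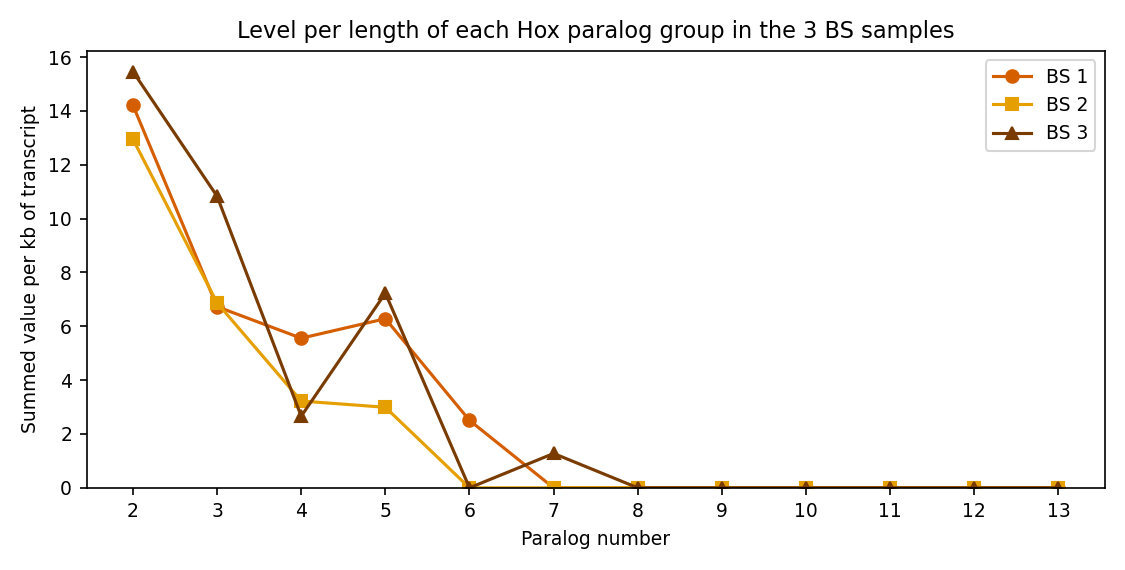
Summed normalized value per kb of transcript (vertical axis) of each paralog group from 2 to 13 (horizontal axis) in the 3 BS samples, 1 line each. All 3 lines peak at group 2, between 12.95 and 15.46, and lie at 0 from group 8 on.

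The expression of paralog group 2 reaches far forward in the embryonic hindbrain. Hoxa2, which patterns the anterior hindbrain and sets the identity of the neural crest of the second arch, was the most abundant Hox gene in the BS. Its value was 40.0, 44.1 and 46.3 in BS replicates 1, 2 and 3, from 38, 22 and 22 reads, and 0 in each of the 8 other samples. The mean was 43.4 ± 3.22 (SD, n = 3), the smallest spread relative to the mean among the 6 tested Hox genes. Per kb, Hoxa2 had 24.5 ± 1.82 (SD, n = 3), and its lowest BS sample (22.5) was above the highest of the next gene, Hoxa5 (21.3). Against the floor of 3 reads over the 8 other libraries, the BS mean of Hoxa2 was at least 158-fold higher, and 21.0-fold against the CX alone. Such bounds take the BS mean as exact, here and below. Some transcripts of Hoxa2 share 267 exon bases with the noncoding gene Gm28308 on the same strand.

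Hoxb2, the only other member of group 2, was far lower. It had values of 8.41, 0 and 6.31 in the BS, from 8, 0 and 3 reads, and 0 elsewhere. It overlapped the other regions through BS replicate 2, and its exact permutation test gave p = 0.05455 (two-sided). Reads in 2 BS samples and in no other sample give that p whatever their number. Of paralog group 1, Hoxb1 and Hoxd1 had no read in any sample.

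The genes of paralog group 3 mark the territory from the fifth rhombomere backward, and all 3 were read in every BS sample. Hoxb3 had values of 47.3, 4.01 and 40.0 in the BS, from 45, 2 and 19 reads. Hoxa3 had 6.31, 30.1 and 35.8, and Hoxd3 had 5.26, 26.04 and 18.94. All 3 genes were at 0 in the other 8 samples, so that no BS sample overlapped them. The BS replicates differed by more than counting error. For Hoxb3 the 95% Poisson interval of replicate 2 (0.485 to 14.5) lay below those of replicates 1 (34.5 to 63.3) and 3 (24.1 to 62.5). For Hoxa3 and Hoxd3 it was replicate 1 that was lowest, with an interval of 2.32 to 13.7 for Hoxa3 against 16.8 to 49.6 in replicate 2. The sum of the group varied less than its members, at 58.9, 60.1 and 94.7. The BS mean was at least 111-fold the floor over the other libraries for Hoxb3, 87.5-fold for Hoxa3 and 60.9-fold for Hoxd3. Against the CX alone, these bounds were 14.7-fold, 11.6-fold and 8.08-fold, and the lowest BS samples lie closer to the floor than the means.

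Hoxb3 shares 2250 exon bases with the antisense gene Hoxb3os. Hoxa3 shares up to 503 with an opposite-strand gene (Hoxaas2), and Hoxd3 shares 347 with Hoxd3os1 and 2225 with Gm28230 on its own strand. The strand setting of the counting is not given in the sources used here, so that reads from a Hox gene and from its antisense partner cannot be told apart. Hoxaas3 and Hoxd3os1 were listed at 0 in all 11 samples, and Hoxaas2 had 4 reads, all in the BS. No entry was listed under the name Hoxb3os, so that its level is not known here. Opposite-strand genes also overlap exons of Hoxb2 (953 bases), Hoxa4 (255), Hoxd4 (347), Hoxb5 (100) and Hoxa7 (586).

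Paralog group 4, which marks the most posterior part of the hindbrain and the border with the spinal cord, was read in every BS sample from all 4 clusters. Hoxc4 was its highest member by mean value, with 19.97, 16.03 and 6.31 in the BS from 19, 8 and 3 reads, and 0 elsewhere. Hoxd4 had values of 15.8, 4.01 and 8.42, and Hoxa4 had 11.6, 6.01 and 2.11. Hoxb4 had 1.051, 2.003 and 6.314, which are only 1, 1 and 3 reads. Hoxc4, Hoxd4, Hoxa4 and Hoxb4 were thus present in all 3 BS samples and absent from the other 8, but at levels where the counting intervals of the BS replicates overlapped. Per kb, the means ran from 7.11 ± 3.55 for Hoxc4 through 4.12 ± 2.98 for Hoxa4 and 3.67 ± 2.32 for Hoxd4 to 1.22 ± 1.09 for Hoxb4 (SD, n = 3). Neighbours in this order did not differ beyond their spread. The BS mean of Hoxc4 was at least 51.3-fold the floor over the other libraries, and 6.81-fold against the CX alone. No opposite-strand gene overlaps the exons of Hoxc4.

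Paralog groups 5 to 7 act mainly at cervical and thoracic levels of the axis. Hoxa5 stood out among them, with values of 21.0, 16.0 and 40.0 in the BS from 20, 8 and 19 reads, and 0 in the other 8 samples. It was second to Hoxa2 per kb (13.7 ± 6.74, SD, n = 3), and no gene outside the family overlaps its exons. The BS mean of Hoxa5 was at least 93.4-fold the floor over the other libraries, and 12.4-fold against the CX alone. Hoxb5 had values of 21.0, 0 and 8.42, and the overlap with the other regions came from BS replicate 2. Its exact permutation p of 0.05455 (two-sided) follows from that pattern alone. Hoxb6 had 7 reads, all in BS replicate 1. Hoxa7 had 2 reads in BS replicate 3 and 1 in OB replicate 2, while Hoxc5 and Hoxc6 had 2 reads each in a single BS sample. At 2 reads these genes are at the edge of detection.

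**Figure D3:**
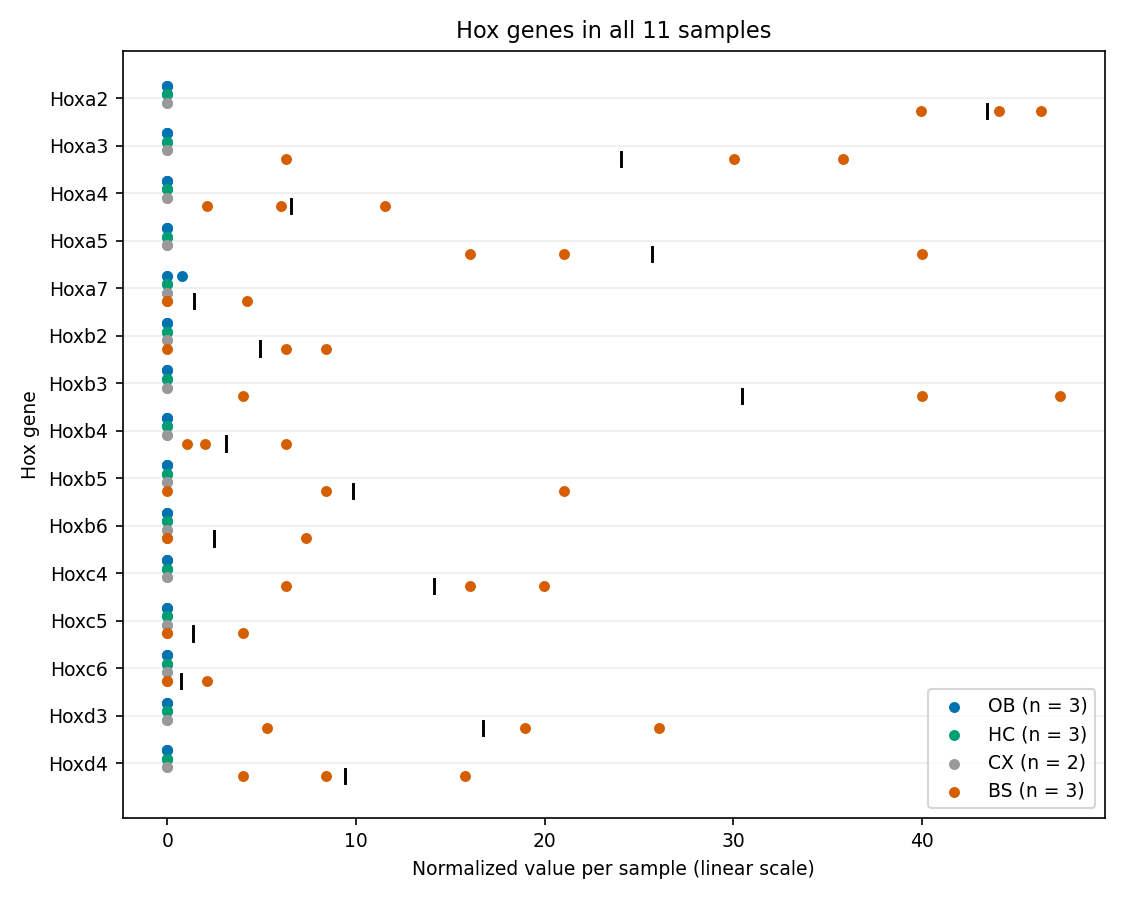
Normalized value (horizontal axis, linear) of 15 of the 16 Hox genes with a BS read in each of the 11 samples, coloured by region, with a black bar at the BS mean. The only point above 0 outside the BS is Hoxa7 in OB replicate 2 (0.790), and the 3 BS points lie close together for Hoxa2 and far apart for Hoxb3.

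The 4 clusters contributed unequally. HoxA held 193 BS reads from 6 of its 11 genes, HoxB 113 from 5 of 10, HoxC 34 from 3 of 9 and HoxD 48 from 2 of 9. The summed value of HoxA was 82.0, 96.2 and 141 in the BS, while HoxD was steady at 21.0, 30.1 and 27.4. HoxC had 22.08, 20.03 and 6.314. HoxB differed most between the BS samples, with 85.2, 6.01 and 61.0 from 81, 3 and 29 reads. As a share of the Hox reads of its sample, HoxB made up 40.5% (33.6 to 47.7%) in replicate 1, 3.95% (0.822 to 11.1%) in replicate 2 and 25.9% (18.1 to 35.0%) in replicate 3 (exact Clopper-Pearson 95% intervals, which cover counting error only). The interval of replicate 2 did not overlap those of the other BS samples. HoxA in turn made up 39.0% (32.2 to 46.1%) in replicate 1 and 63.2% (51.3 to 73.9%) in replicate 2. PCR copies cannot be told from separate molecules in these libraries, which were made from 5 ng of total RNA.

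**Figure D4:**
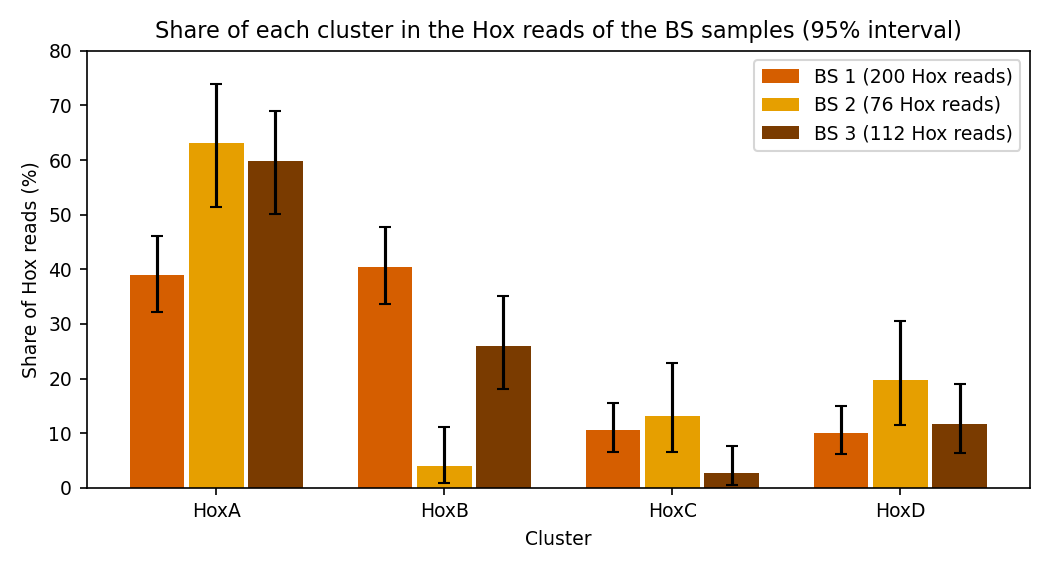
Share of each cluster (horizontal axis) in the Hox reads of each BS sample (vertical axis, percent), with exact 95% binomial intervals as error bars. HoxB is at 40.5% in replicate 1 and at 3.95% in replicate 2, with intervals that do not meet.

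Only 6 Hox genes, Hoxa2, Hoxa3, Hoxa5, Hoxb3, Hoxc4 and Hoxd3, had enough reads to enter the fit over 13875 genes. They passed its filter through their BS reads, so that a difference was built into their selection. A call needed p below 0.01 before adjustment and a difference of more than 1.5-fold, the thresholds of the study, and a value above 5 in 2 or more replicates. The study does not say of which region these must be, and BS replicates were required here. All 6 were called higher in the BS, by a rule that called 3.98% of all tested genes higher, and that share does not serve as a measure for genes that entered in this way. The log2 fold change on the log2(value + 1) scale was largest for Hoxa2, at 5.47 (SE 0.63, adjusted p = 0.000189, limma). It was 4.64 (SE 0.67, adjusted p = 0.001065, limma) for Hoxa5 and 4.43 (SE 0.81, adjusted p = 0.005942, limma) for Hoxb3. Hoxa3 had 4.34 (adjusted p = 0.003604, limma), Hoxd3 had 3.91 (adjusted p = 0.007165, limma) and Hoxc4 had 3.78 (adjusted p = 0.007169, limma). These fold changes depend on the pseudocount, since the other regions are at 0, and the bounds against the floor do not. The SE and p rest on a spread pooled over all 11 samples, to which the 8 samples at 0 add none. They do not measure the spread of the BS samples alone, which was wide for Hoxb3 (47.3, 4.01 and 40.0).

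Hoxa2 and Hoxa5 were tested and called whichever of the 11 samples was left out. Hoxa3, Hoxb3, Hoxc4 and Hoxd3 each fell below the filter in 2 of the 3 fits without a BS sample. The Hox genes tested, and called, numbered 4 without BS replicate 1, 3 without replicate 2 and 3 without replicate 3.

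The smallest p that the exact permutation test can give over the 165 ways to choose 3 of 11 samples is 0.006061, and a gene with reads in every BS sample and in no other sample reaches it by that pattern alone. The test therefore adds nothing to the pattern for the 9 such Hox genes, nor for Hoxb2 and Hoxb5, whose p is likewise fixed by the samples with reads. Of all genes tested in the fit, 3.7% had every BS sample above every other sample. Among the 24421 entries, a read in every BS sample and none in the 8 others was found for 17 (0.0696%). Hox genes made up 9 of these 17 (52.94%), which is 23.08% of the 39 Hox genes. With at least 3 reads in every BS sample, 5 of 9 such entries were Hox genes. The same pattern in favour of another region was met by 34 entries for the OB, 8 for the HC and 8 for the CX, none of them a Hox gene.

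The 8 other entries with the BS-only pattern were equally like the Hox genes in the presence of reads, and the 5 highest by mean value are named. The highest was Pax3, a factor of the dorsal neural tube, with 43.1, 30.1 and 27.4 in the BS. Gabra6, a GABA receptor subunit typical of cerebellar granule neurons, had 10.51, 18.03 and 61.04. B230323A14Rik had 4.21, 34.1 and 16.8. Haglr, a long noncoding RNA of the HoxD cluster, had 21.03, 14.02 and 2.105, and Gdf7, a signal of the roof plate, had 18.9, 4.01 and 10.5. Haglr shares 21 exon bases with Hoxd3.

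The BS was next set against each other region in turn. In a fit with 1 mean per region, all 6 tested Hox genes were called against the OB, the HC and the CX. The rule called 8%, 3.34% and 6.91% of all tested genes higher, but the 6 had passed the filter through their BS reads, so that nothing is read from these shares. The largest adjusted p of the 6 was 0.01131 against the OB, 0.02713 against the HC and 0.02757 against the CX (limma). Each gene had the same log2 fold change in all 3 contrasts, since it was at 0 in the OB, HC and CX. Its unadjusted p was also the same against the OB and the HC. The adjusted values differ through the other genes, and for the CX also through its 2 samples, so that they do not rank the regions. The 3 contrasts share the BS samples and are not separate evidence. Of the counts-based tests, edgeR called 6 against the OB and 6 against the HC, but 3 against the CX, which has 2 samples. DESeq2 called 1 in each of the 3 contrasts. The OB, HC and CX were also each compared with the samples of the rest. Calls in either direction made up 6.95% of all tested genes for the OB, 1.14% for the HC and 2.1% for the CX. The 6 Hox genes were at 0 in every OB, HC and CX sample, and the rule required a value above 5 in the region tested. None could therefore be called there by limma, edgeR or DESeq2, and nothing is read from the absence of calls. No unadjusted p was under 0.05 in limma, whereas edgeR gave 2 such genes for the OB, 6 for the HC and 0 for the CX, and DESeq2 gave 2, 4 and 0.

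The BS samples also differed from the others in markers of other cells. The summed value of 7 oligodendrocyte markers was 51360 to 88340 in the BS against at most 39220 elsewhere, and 3 of the 7 were called higher, where 3.98% of all tested genes were called higher and 4.42% lower. The 7 choroid plexus markers summed to 50530 to 237500 in the BS and to 70060 to 142100 in the HC, so that these regions overlapped. The 7 fibroblast and mural markers summed to 3146 in BS replicate 1, with Dcn at 1667, against 920 and 1174 in the other BS samples and at most 1349 elsewhere. Of these 7, only Col1a2 was called (log2 fold change 2.25, adjusted p = 0.0014, limma), and its values of 644.5, 256.4 and 298.9 in the BS were above all others (at most 146.2). The 11 neuron markers summed to 2695 to 3549 in the BS and to 2199 to 3843 in the OB, with 3 markers called higher and 3 lower. The 6 ependymal markers summed to 455.2, 98.16 and 330.4 in the BS and to at most 140.5 elsewhere, so that BS replicate 2 overlapped the other regions. Foxj1 was the only 1 of 4 tested ependymal markers called (log2 fold change 2.27), and Ccdc153 and Tmem212 were at 0 in all BS samples. Which sorted cells carried the Hox reads was not tested.

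Other transcripts of the Hox clusters were then examined. Hotairm1, a long noncoding RNA of the HoxA cluster, was the only one of 15 listed noncoding genes of the clusters with enough reads for a test. Its value was 31.5, 46.1 and 27.4 in the BS, 7.67 in CX replicate 2 and 0 in the other 7 samples, so that the BS lay above all others. It was called higher in the BS (log2 fold change 4.75, adjusted p = 0.003528, limma), a call that DESeq2 did not give. Haglr of the HoxD cluster, which is not among the 15, also had enough reads for a test, all of them in the BS (log2 fold change 3.335, adjusted p = 0.02696, limma). Of the 15, 12 had no read in any sample. Among them are microRNA genes such as Mir10a and Mir10b, and the study describes no library for small RNA. Genes that flank the clusters showed no such pattern. Of 9 tested, where 3.98% of all tested genes were called higher and 4.42% lower, Calcoco1 beside HoxC was called higher (log2 fold change 0.84) and Snx10 beside HoxA lower (−0.71), neither with an adjusted p under 0.05 (0.0643 and 0.0910, limma) and neither called without BS replicate 1, and Evx1 and Evx2 had 1 read between them.

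The TALE cofactors bind DNA together with Hox proteins, and the tested ones were read in every sample of every region. Of 8 tested, Meis1 was called higher in the BS, 1 was called lower and 6 were not called, where 3.98% of all tested genes were called higher and 4.42% lower. Meis1 had values of 102, 152 and 128 in the BS and 13.7 to 69 elsewhere, without overlap (log2 fold change 1.93, adjusted p = 0.0348, limma), though its call was lost without BS replicate 2. Meis2 had a mean of 285 ± 3.95 in the BS (SD, n = 3), close to the HC and below the OB and CX, and it was not called (adjusted p = 0.242, limma). The median log2 fold change was 0.22 over the 8 cofactors and 0.02 over all genes tested.

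Retinoic acid switches on the 3′ Hox genes in the embryo. Of 7 tested genes of its pathway, 2 were called higher in the BS and none lower, where 3.98% of all tested genes were called higher and 4.42% lower. Cyp26b1, which degrades retinoic acid, had values of 437, 1316 and 783 in the BS and 0 to 97.4 elsewhere (log2 fold change 6.85, adjusted p = 0.002946, limma). Aldh1a1, which makes it, had 3346, 7609 and 3155 in the BS and 553 to 1493 elsewhere (log2 fold change 2.44, adjusted p = 0.000685, limma). Neither gene overlapped between the BS and the rest. The receptors were not called: the log2 fold change was −1.04 for Rarb (adjusted p = 0.177, limma) and −1.34 for Rarg (adjusted p = 0.123, limma).

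Factors that start or hold Hox expression gave few calls. Of 7 upstream regulators, 2 could be tested and neither was called by limma, edgeR or DESeq2, with no unadjusted p under 0.05. One of them was Egr2, which acts in rhombomeres of the embryo (adjusted p = 0.919, limma). Cdx1, Cdx2 and Cdx4 had no read in any sample. None of 24 tested Polycomb and Trithorax genes, whose products hold Hox clusters off or on, was called in the BS by limma, edgeR or DESeq2, where limma called 8.4% of all tested genes in either direction. An unadjusted p under 0.05 was given to 2 of the 24 by limma and to 3 by edgeR and by DESeq2, and the median log2 fold change was 0.11. Nkx6-1, the homeodomain factor that the study followed in the BS, had values of 19.97, 12.02 and 21.05 there, 5.62 in HC replicate 1 and 0 in the other 7 samples (adjusted p = 0.0125, limma).

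Of 6 tested factors of the anterior brain, 1 was called lower in the BS, 1 higher and 4 were not called, where 4.42% of all tested genes were called lower and 3.98% higher. With the value over 5 allowed in any region, 4 were called lower and 1 higher. Lhx2 had values of 2.10, 8.01 and 2.11 in the BS and 1060 to 2222 elsewhere, and Emx2 had 0, 2.003 and 0 against 41.3 to 550. Neither gene overlapped between the BS and the rest, with log2 fold changes of −8.43 for Lhx2 (adjusted p = 1.297e-09, limma) and −7.25 for Emx2 (adjusted p = 0.0001357, limma). Lhx2 and Emx2 do not count as called, since a value over 5 was required here in the BS. Six3 had 0, 0 and 10.52 in the BS and 0 in every OB sample, and it was not called (adjusted p = 0.437, limma). Otx1 was called lower (log2 fold change −3.00, adjusted p = 0.000685, limma). Otx2, which is also a choroid plexus marker, was called higher, with 2445, 609 and 1223 in the BS against 29.2 to 830 elsewhere, an overlap through BS replicate 2 (log2 fold change 3.09, adjusted p = 0.0738, limma), and its call was lost under edgeR and DESeq2.

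**Figure D5:**
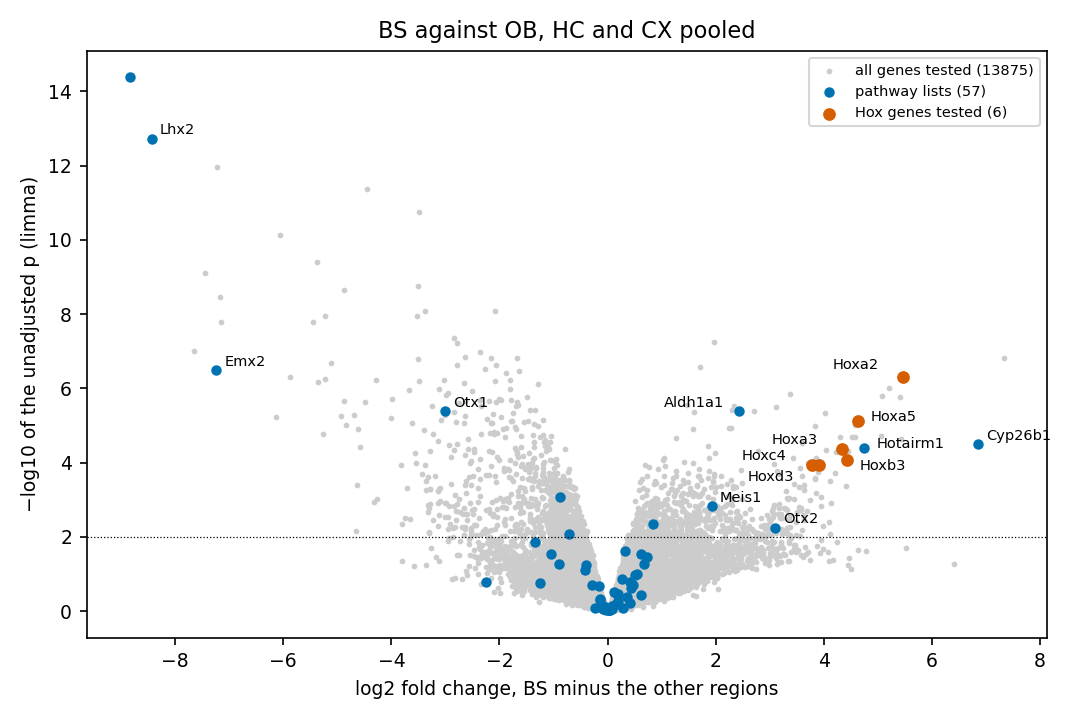
Log2 fold change of BS minus the other regions (horizontal axis) against −log10 of the unadjusted limma p (vertical axis) for 13875 genes, with the 6 tested Hox genes in orange and the tested genes of the pathway lists in blue, and a dotted line at the threshold of the call. The Hox genes lie between 3.78 and 5.47 on the right, and Lhx2 and Emx2 on the far left.

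The sequence before the start of transcription was compared between Hox genes with and without reads. Among RefSeq promoters, 24 belonged to 22 of the 39 Hox genes, and Hoxb3 was not matched. The 250 bases before the start are shown for the 2 genes highest per kb, Hoxa2 (chr6:52164832-52165081) and Hoxa5 (chr6:52204588-52204837), and for Hoxa9 (chr6:52227371-52227620), a gene of the same cluster without a read. All are on the minus strand of GRCm38.p6, are printed 5′ to 3′, and lie outside annotated exons. Capitals mark TAAT on either strand, the core that homeodomain proteins read.
Hoxa2: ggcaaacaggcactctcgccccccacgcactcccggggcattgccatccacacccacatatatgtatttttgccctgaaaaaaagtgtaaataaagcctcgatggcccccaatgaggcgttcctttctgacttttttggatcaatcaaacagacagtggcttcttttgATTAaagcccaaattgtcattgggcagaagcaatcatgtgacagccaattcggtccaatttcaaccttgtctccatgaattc
Hoxa5: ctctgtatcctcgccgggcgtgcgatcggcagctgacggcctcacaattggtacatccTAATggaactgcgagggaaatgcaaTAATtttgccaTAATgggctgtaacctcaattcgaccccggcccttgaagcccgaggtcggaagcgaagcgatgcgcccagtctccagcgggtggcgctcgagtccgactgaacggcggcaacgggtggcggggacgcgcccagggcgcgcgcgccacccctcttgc
Hoxa9: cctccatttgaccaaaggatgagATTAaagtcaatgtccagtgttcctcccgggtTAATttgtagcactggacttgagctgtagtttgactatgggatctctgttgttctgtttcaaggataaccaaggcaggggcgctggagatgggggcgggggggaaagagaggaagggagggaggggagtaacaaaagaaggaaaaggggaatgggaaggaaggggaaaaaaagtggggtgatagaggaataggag

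The core TAAT was found in 18 of 24 Hox promoters (75%) and in 54.92% of all 32851 RefSeq promoters of this length. It was found in 6 of 8 promoters of Hox genes with a BS read and in 12 of 16 without one, 75% of each. Hoxa5 has 3 copies, Hoxa9 has 2 and Hoxa2 has 1, so that the gene without reads lies between the others. TGATNNAT, a joint motif of Pbx and Hox proteins searched on both strands, was in 4 of the 24 Hox promoters (16.67%) and in 7.683% of all promoters, and Hoxa2 has a copy. The CCAAT box was in 58.33% of Hox promoters and 33.85% of all, and TATAAA in 16.67% and 12.37%. The median GC content was 58.6% for Hox promoters and 52.4% for all, with a median of 12.5 and 6 CpG sites. A match is a description of the sequence and not of binding.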

How the data were processed

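RNA of eGFP+ astrocytes was measured in 11 samples, whose groups are the brain regions that the labels give. Per the study's methods, the authors mapped 75-base read pairs with STAR 2.5.0a to mm10, counted them on UCSC transcripts and normalized with DESeq2 1.20.0. The deposited unit is a normalized signal, each count divided by 1 size factor per sample. All non-zero values (100%) were whole multiples of 1 step per sample within 0.01 read, which gave the reads. Depth was 2830746 to 14151670 reads per sample.

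Genes passing edgeR's filterByExpr on these reads were fitted with limma 3.58.1 in R 4.3.3, with its trend option and two-sided p-values, on log2(value + 1) over all 11 samples and without covariates. The study's thresholds for calls were used, with its minimum value required in the region of interest, and p-values were adjusted by Benjamini and Hochberg. edgeR 4.0.16 and DESeq2 1.42.0 on the recovered reads, other pseudocounts (0.25 and 5), filters, scales, a block for the replicate number and the removal of each sample were alternatives. Python 3.11.15, numpy 2.4.6, pandas 2.3.3, scipy 1.17.1 and matplotlib 3.10.9 were used for intervals, exact tests and plots. Lengths, exons and coordinates are those of GENCODE on GRCm38, the same assembly as mm10, with the longest transcript per gene. The fits were tested on simulated data.

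The members and lists were chosen with earlier results of these data known. Values per sample are given for tested Hox genes and those with reads in more than 1 sample, and from each list the called genes are named. Naming Lhx2, Emx2, Six3, Meis2, Rarb, Rarg, Egr2 and Nkx6-1 was decided after their values were seen. ChIP and immunostaining were not analysed here, and values of a few genes and sequences are not reported here.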

Additional observations from a re-analysis of the deposited data

How the results depend on the processing

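The count of 6 Hox genes called in the BS was also given by edgeR with either normalization, DESeq2, both pseudocounts, 1 mean per region, the scale without Rn45s and all call rules, one of which (a value over 5 in any region) was chosen after seeing the data. It rose to 10 without the filter and to 10 with at least 10 reads in all, and ran from 3 to 8 when each sample was left out. Against the OB, HC and CX, no filter gave 10 for the OB and 10 for the HC, DESeq2 gave 1 for each region, edgeR gave 3 for the CX with TMM and 3 with RLE, and leaving out a sample gave 3 to 7, 3 to 7 and 3 to 6. In the BS against all other samples, the 6 Hox genes kept their call in each alternative in which they could be tested. Their direction could not reverse, since they were at 0 in every other sample. They entered through their BS reads and dropped out of the filter where these were too few, so that the kept calls are not separate support. Deviations from the region mean correlated at −0.16 to 0.25 for same-numbered samples and at −0.224 to 0.183 for others, ranges that overlap. Between the OB and HC, same-numbered samples were at 0.195, 0.074 and 0.25, and others at −0.224 to 0.0283. HC replicate 3 and BS replicate 3 were at −0.16. Whether the replicate number pairs samples is thus not settled by these correlations. With a replicate block, the 6 Hox genes that had passed the filter through their BS reads were called in the BS against the rest and against each other region. The 0 calls in the OB, HC or CX were fixed by the call rule, as these genes were at 0 there. Of the pathway lists, 8 genes were called with the block in place of 9. Those 9 ran from 6 to 9 when a sample was left out, and 12 were called if the value over 5 could be in any region, which adds Lhx2 and Emx2 among others. Otx2 lost its call under edgeR, DESeq2, the replicate block and without BS replicate 1 or 3, Hotairm1 under DESeq2, Meis1 without BS replicate 2, Calcoco1 without BS replicate 1 or 3, and Snx10 under edgeR, without Rn45s and without any of several samples. The summed Hox value of the BS, 199, became 173 on all gene reads, 208 without Rn45s and 181 to 223 without a BS sample. Hox genes with reads in at least 2 BS samples numbered 12, 11 at 3 reads, 12 after thinning and 9 to 12 without a BS sample. The 17 entries read in the BS alone became 9 at 3 reads and 17 to 39 when a sample was left out, 39 without BS replicate 2 (12 of them Hox) and 29 without BS replicate 3 (9 of them Hox). The cause of these shifts was not tested, apart from the fewer samples and genes that the alternatives leave. Depth limits the BS most, where 1 read is worth up to 2.11 and genes at 1 to 3 reads cannot be ranked.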
